A study of Drosophila melanogaster with 18 samples.

Results

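The occupancy of 9 cytoskeleton genes by 3 transcription regulators was followed along their whole length in the fly eye-antennal disc, the larval precursor of the eye and antenna. The genes were chosen by name: Act5C, Act42A, Moe, cher, pbl, zip, sqh, alpha-Spec and beta-Spec. Each was measured over a window of its RefSeq span with 1 kb on both sides, 9 windows of 14195 in all, and all 9 passed the filter on low counts. Coordinates are dm6. Together the windows held 1174 of the 767321 GATC ends in the count table.

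Targeted DamID marks chromatin with a bacterial DNA adenine methyltransferase (Dam). Either free or joined to a DNA-associated protein, Dam methylates the GATC sites it reaches, and DNA cut at methylated sites is amplified and sequenced. All 6 groups carried Eyeless-Gal4 and Gal80ts, a temperature-sensitive repressor of Gal4, in larvae early in the third instar, with 3 replicates in each group. The controls carried UAS-Dam (Sets 1, 2 and 3) and the others UAS-Dam-Sd, UAS-Yki-Dam or UAS-Dam-Jra. Embryos came from laying at 25 °C, development went on at 18 °C for 4 days, and Dam was then induced at 29 °C for 24 hours. Sd (Scalloped) is the TEAD-type DNA-binding protein of the Hippo pathway, Yki (Yorkie) its coactivator, and Jra the Jun subunit of AP-1, which acts downstream of JNK. Methylation comes only from cells in which Eyeless-Gal4 is active, and from a transgenic fusion, not the native protein. The labels do not say how many discs were pooled or whether replicates were separate crosses, so p-values measure the spread between these libraries, which may be technical.

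Cytoplasmic actin is made from Act5C and Act42A. Moe (Moesin) ties actin filaments to the plasma membrane and cher (filamin) crosslinks them. pbl (Pebble) is needed for cytokinesis, the splitting of the cell after mitosis. zip (Zipper) is the heavy chain of non-muscle myosin and sqh (Spaghetti squash) its regulatory light chain, whose phosphorylation turns the motor on. alpha-Spec and beta-Spec build the spectrin network under the membrane. In fly discs, actin tension and spectrin are known to act upstream of Yki, and JNK signalling is known for remodelling the cytoskeleton of epithelia.

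Libraries held between 21.4 M and 41 M reads, fewest in Dam Set 2 and most in Yki-Dam. Dam-Sd replicate 3 had the lowest CPM of its group at Act5C, Moe, cher, pbl, zip and sqh. Disc genes (ey, toy, eya, so, dac, Optix, hth and Dll) had a median of 16.3 CPM per kb in the 9 Dam libraries, against 4.82 over all windows. The medians were 4.06 for muscle genes, 1.93 for haemocyte genes, 3.08 for fat body genes and 1.93 for neuron genes. CPM is the TMM-scaled count of a window relative to its library, and in Dam alone it reflects how far Dam reached the DNA, not RNA. The part of other cells in the results was not tested.

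Of the 9 genes, 5 (Act5C, Moe, cher, pbl and zip) gained reads over Dam alone in all 3 fusions. The share of all windows that did so is not given here, only the share for each fusion. Act42A gained in Dam-Jra and in neither Hippo fusion. alpha-Spec lost reads in all 3, most in Dam-Sd, and beta-Spec fell in Dam-Sd while it rose in Dam-Jra. In Dam-Sd against Dam of Set 1, 6 members were higher and 2 lower, where 25.5% and 29% of 14090 tested windows were. In Yki-Dam against Dam of Set 2, 5 were higher and 1 lower (21.1% and 15.3% of all windows). In Dam-Jra against the mean of the 3 Dam sets, 8 were higher and 1 lower (32.3% and 36.2% of all windows). The median log2 fold change of the 9 members was 1.60 for Dam-Sd, 1.62 for Yki-Dam and 1.79 for Dam-Jra, against −0.18, −0.13 and −0.10 over all windows. Calls are adjusted p below 0.05 in edgeR's quasi-likelihood test, with Benjamini-Hochberg correction across all windows. The titles put Dam-Jra in Set 1 and name a Dam Set 3 with no fusion, so the mean of the sets was its control. Against Dam Set 3 alone, the same 8 higher and 1 lower were called (22.7% and 27.5% of all windows), with a member median of 1.28. Scaled by library size alone, which moved the median of all windows to −1.21 in Dam-Sd, sqh stood at −0.20 and Act5C at 0.42 there, neither called.

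**Figure D1:**
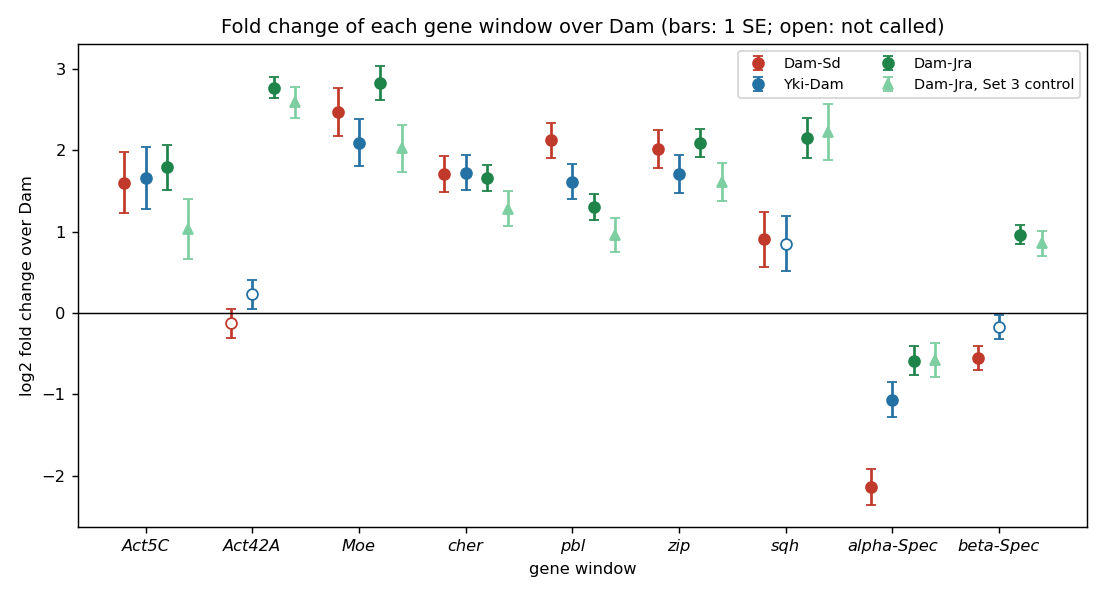
Log2 fold change over Dam (y axis) of each gene window (x axis) for the 3 fusions, and for Dam-Jra against Dam Set 3 alone (triangles). Bars are 1 SE, open symbols were not called, and Act42A stands near 0 in both Hippo fusions but at 2.77 in Dam-Jra.

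The actin genes parted. At Act5C (X:5900861-5905399) the Dam-Sd libraries held 571, 523 and 167 CPM, against 173, 145 and 96.2 CPM in Dam of Set 1. The first 2 Dam-Sd libraries lay far above Dam and replicate 3 lay just under the highest Dam library, so the groups overlapped. The window rose 3.04-fold in Dam-Sd (log2 1.60 ± 0.38 SE, adjusted p = 0.00135 in edgeR). In Yki-Dam it held 188, 472 and 508 CPM against 93.4, 129 and 148 CPM in Dam of Set 2, a 3.16-fold rise (1.66 ± 0.38, adjusted p = 0.00209). Here the groups did not overlap, and Yki-Dam replicate 1 was lowest. In Dam-Jra it held 624, 607 and 535 CPM, above all 9 Dam libraries (93.4 to 295 CPM), a 3.46-fold rise (1.79 ± 0.28, adjusted p = 1.39e-05). Set 3 alone held 281 to 295 CPM, higher than the other Dam sets, and gave Dam-Jra a log2 fold change of 1.03 ± 0.37 (adjusted p = 0.0268).

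Act42A (2R:6013910-6015689) differed from Dam in neither Hippo fusion by a margin that passed the test. It held 53.6, 37.3 and 34.4 CPM in Dam-Sd against 46.2, 41.7 and 48.9 CPM in Dam of Set 1 (log2 −0.13 ± 0.18, adjusted p = 0.563). In Yki-Dam it held 56.8, 49.3 and 49.1 CPM against 47.1, 38.9 and 46.4 CPM in Dam of Set 2 (0.23 ± 0.18, adjusted p = 0.316). Every Yki-Dam library was above every Dam library of its set, yet the difference did not pass the test. In Dam-Jra it held 317, 336 and 324 CPM, while the 9 Dam libraries held 38.9 to 60.8 CPM. That was a 6.82-fold rise (2.77 ± 0.13, adjusted p = 6.98e-12). The Dam-Jra fold exceeded that of Dam-Sd by 2.90 on the log2 scale (Dam-Sd minus Dam-Jra −2.90 ± 0.21, adjusted p = 1.95e-08) and that of Yki-Dam by 2.54 (Yki-Dam minus Dam-Jra −2.54 ± 0.21, adjusted p = 1.32e-07). Without the flanks, the Dam-Sd value was −0.57 with an adjusted p of 0.0234, which made it a called loss. Coding sequences of the actin genes are nearly identical, and how reads that map to several places were treated is not given in the sources used here, so values inside the coding parts are uncertain.

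**Figure D2:**
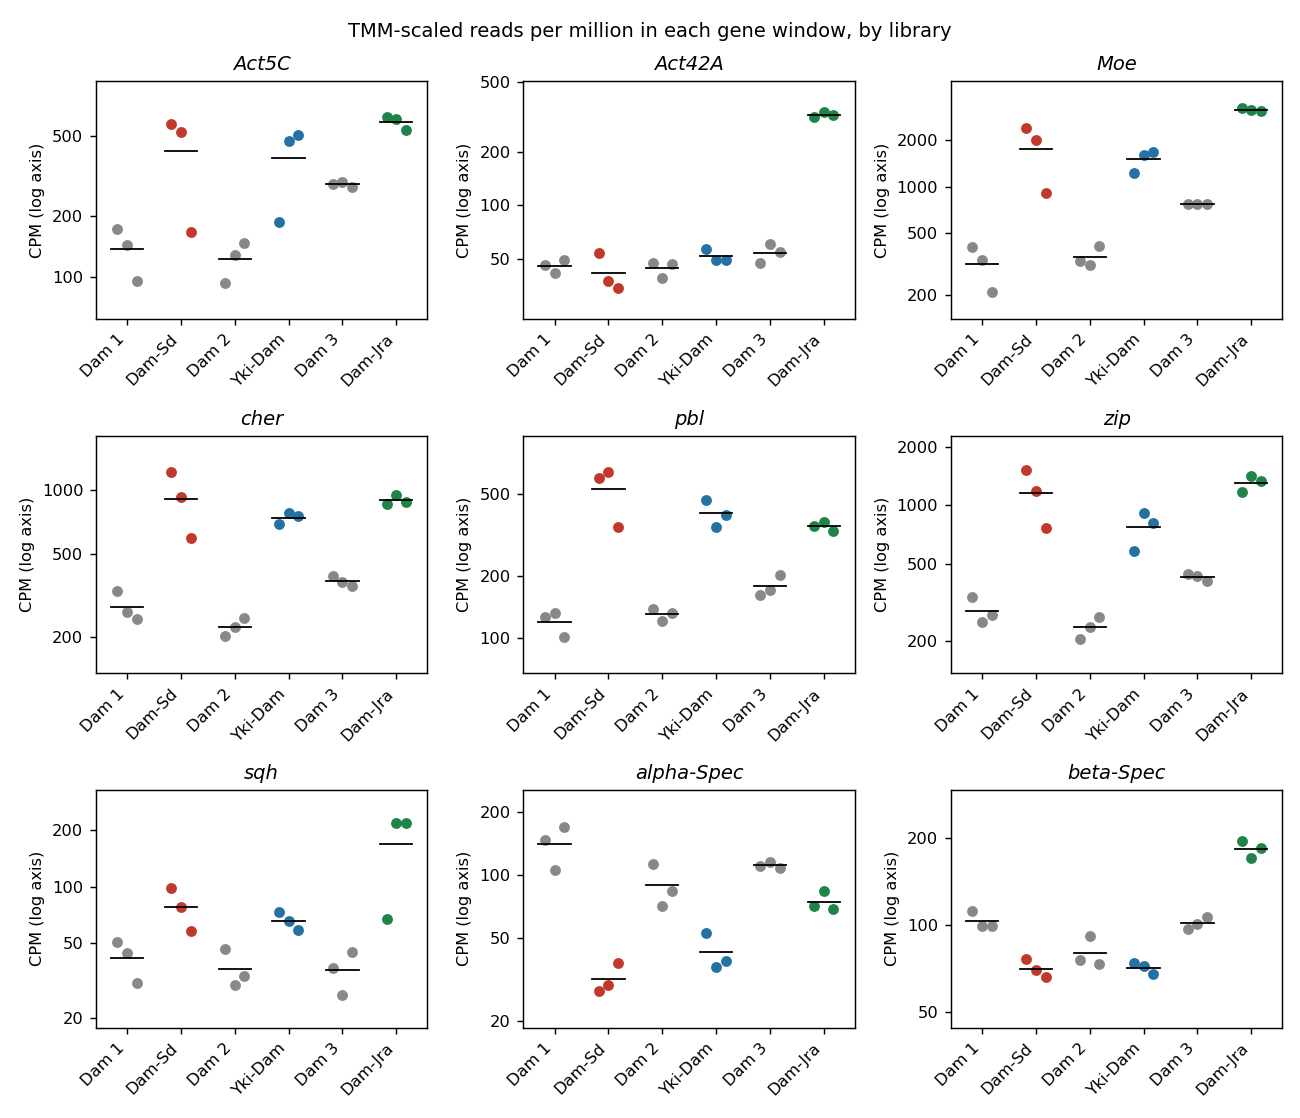
TMM-scaled CPM (log axis) of each of the 18 libraries in the 9 gene windows, with points for libraries and a line for the group mean. Dam 1, 2 and 3 are the Dam sets, and the Dam-Jra libraries of Act42A sit at 317 to 336 CPM while all others of that gene lie between 34.4 and 60.8 CPM.

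Moe (X:8873012-8898332) had the largest gain of the 9 in Dam-Sd and Yki-Dam, and in Dam-Jra it was level with Act42A within the SE. It held 2392, 1992 and 911 CPM in Dam-Sd against 408, 339 and 210.4 CPM in Dam of Set 1, a 5.53-fold rise (2.47 ± 0.30, adjusted p = 1.88e-06). It held 1219, 1608 and 1678 CPM in Yki-Dam against 331, 310.3 and 414 CPM in Dam of Set 2, a 4.27-fold rise (2.09 ± 0.29, adjusted p = 2.57e-05). The Dam-Jra libraries held 3217, 3139 and 3106 CPM against 210.4 to 779.5 CPM in the 9 Dam libraries, a 7.12-fold rise (2.83 ± 0.21, adjusted p = 1.58e-09). No fusion group overlapped its Dam libraries. Against Set 3 alone, which held 772 to 779.5 CPM, the log2 fold change in Dam-Jra was 2.02 ± 0.29, below those of Act42A (2.59 ± 0.19) and sqh (2.23 ± 0.35).

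At cher (3R:17091533-17125389) the 3 fusions gave nearly the same gain. The log2 fold changes were 1.71 ± 0.22 in Dam-Sd (adjusted p = 3.50e-06), 1.73 ± 0.22 in Yki-Dam (adjusted p = 1.07e-05) and 1.66 ± 0.16 in Dam-Jra (adjusted p = 5.20e-08). The libraries held 591 to 1217 CPM in Dam-Sd, 688 to 783 CPM in Yki-Dam and 864 to 948 CPM in Dam-Jra, against 202 to 391 CPM in the 9 Dam libraries. The 95% interval of the difference between folds was −0.65 to 0.61 for Dam-Sd minus Yki-Dam, −0.46 to 0.56 for Dam-Sd minus Dam-Jra and −0.44 to 0.58 for Yki-Dam minus Dam-Jra.

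The cytokinesis gene pbl (3L:7896109-7911954) gained more in Dam-Sd than in Dam-Jra. It held 594, 639 and 344 CPM in Dam-Sd against 127, 133 and 102 CPM in Dam of Set 1, a 4.36-fold rise (2.12 ± 0.22, adjusted p = 4.72e-07). Yki-Dam held 468, 344 and 397 CPM against 139, 122 and 133 CPM, a 3.07-fold rise (1.62 ± 0.21, adjusted p = 1.59e-05). Dam-Jra held 348, 367 and 331 CPM against 102 to 203 CPM in the 9 Dam libraries, a 2.46-fold rise (1.30 ± 0.16, adjusted p = 9.63e-07). The gain in Dam-Sd was larger than that in Dam-Jra by 0.82 ± 0.24 (adjusted p = 0.0107). Between Dam-Sd and Yki-Dam the difference was 0.51 ± 0.29 (adjusted p = 0.331), and without Dam-Sd replicate 3 it was 0.91 (adjusted p = 0.0126).

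Of the myosin subunits, the heavy chain zip (2R:24990570-25011965) rose in all 3 fusions. It held 1520, 1184 and 763 CPM in Dam-Sd and 581, 915 and 811 CPM in Yki-Dam, against 205 to 336 CPM in Dam of Sets 1 and 2. Dam-Jra held 1175, 1408 and 1335 CPM against 205 to 442 CPM in the 9 Dam libraries. The rise was 4.04-fold in Dam-Sd (log2 2.02 ± 0.24, adjusted p = 1.50e-06), 3.26-fold in Yki-Dam (1.71 ± 0.23, adjusted p = 2.22e-05) and 4.26-fold in Dam-Jra (2.09 ± 0.17, adjusted p = 6.04e-09). All fusion libraries lay above all Dam libraries.

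The light chain sqh (X:6223061-6225140) rose mainly in Dam-Jra, and unevenly. The Dam-Jra libraries held 67.6, 219 and 219 CPM, so replicate 1 stood apart, yet all 3 lay above the 9 Dam libraries (26.5 to 50.8 CPM). The rise was 4.43-fold (2.15 ± 0.25, adjusted p = 4.54e-07). Dam-Sd held 98.6, 78.1 and 58.3 CPM against 50.8, 44.3 and 30.5 CPM, a 1.87-fold rise with no overlap (0.90 ± 0.33, adjusted p = 0.0280). That call was lost without Dam-Sd replicate 1 (0.66, adjusted p = 0.143), Dam Set 1 replicate 3 (0.72, adjusted p = 0.124) or Dam Set 1 replicate 2 (0.95, adjusted p = 0.0533). Yki-Dam held 73.6, 66.0 and 58.4 CPM against 46.7, 29.7 and 33.3 CPM, higher in 3 of 3 but not called (0.85 ± 0.33, adjusted p = 0.0524). The call was made without Dam-Jra replicate 1 (0.72, adjusted p = 0.0313) or Dam Set 2 replicate 1 (1.07, adjusted p = 0.0378). The Dam-Jra fold exceeded that of Dam-Sd (difference −1.24 ± 0.38, adjusted p = 0.0141) and of Yki-Dam (−1.30 ± 0.38, adjusted p = 0.0180). Both differences lost their call without Dam-Jra replicate 2 or 3 (−0.97 and −0.97 for Dam-Sd, −1.17 and −1.17 for Yki-Dam), and that with Dam-Sd also without Dam-Sd replicate 3 (−1.01). With the replicate number as a block, the difference from Yki-Dam was −1.13 (adjusted p = 0.0991). Only 8 of the 30 ends in this window lie in no other window, and the windows of Efr and dtn share the rest.

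The spectrins moved unlike the other members. alpha-Spec (3L:1778485-1795328) held 27.9, 29.7 and 37.8 CPM in Dam-Sd against 146, 105 and 169 CPM in Dam of Set 1. It fell by 2.14 on the log2 scale (log2 fold change −2.14 ± 0.22, adjusted p = 4.77e-07), 4.41-fold lower than Dam and among the lowest 1.20% of windows. Yki-Dam held 52.6, 36.1 and 38.9 CPM against 113, 71.2 and 83.7 CPM, with no overlap (−1.07 ± 0.21, adjusted p = 0.000712). Dam-Jra held 70.9, 83.7 and 68.6 CPM, below all libraries of Dam Set 3 (108 to 116 CPM) but overlapping those of Set 2 (−0.59 ± 0.18, adjusted p = 0.00675). The loss in Dam-Sd was larger than in Dam-Jra (difference −1.56 ± 0.24, adjusted p = 7.94e-05). It missed the threshold against Yki-Dam (−1.07 ± 0.30, adjusted p = 0.0518), with an interval of −1.70 to −0.45. That difference was called with the replicate number as a block (−1.08, adjusted p = 0.0267), and without Dam-Sd replicate 3 (−1.04, adjusted p = 0.0167), Dam Set 1 replicate 2 (−1.24, adjusted p = 0.0327) or Dam Set 2 replicate 1 (−1.28, adjusted p = 0.0219).

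beta-Spec (X:17657372-17669371) rose in Dam-Jra and fell in Dam-Sd, both depending on the settings. The Dam-Jra libraries held 196, 171 and 185 CPM against 73.1 to 112 CPM in the 9 Dam libraries, a 1.95-fold rise with no overlap (0.96 ± 0.12, adjusted p = 7.76e-07). Dam-Sd held 76.0, 69.6 and 66.1 CPM against 112, 99.3 and 99.0 CPM, also with no overlap (−0.55 ± 0.15, adjusted p = 0.00430). Yki-Dam held 73.8, 72.0 and 67.4 CPM against 75.6, 91.6 and 73.1 CPM, which overlapped (−0.17 ± 0.15, adjusted p = 0.369). The difference from Dam-Jra was −1.51 ± 0.17 for Dam-Sd (adjusted p = 3.25e-06) and −1.14 ± 0.17 for Yki-Dam (adjusted p = 0.000143). The loss in Dam-Sd was called neither without the 1 kb flanks (−0.06, adjusted p = 0.805) nor over ends in no other window (−0.08, adjusted p = 0.774), nor with DESeq2 size factors (−0.38, adjusted p = 0.0655) or only the libraries compared (−0.55, adjusted p = 0.0622). Scaled by library size alone, the Dam-Jra value was 0.04 (adjusted p = 0.804), not called.

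The folds of the fusions were then compared with each other. For Dam-Sd minus Yki-Dam, 0 members were called (1.19% of all windows were higher and 2.11% lower). 1 of them, alpha-Spec, had an unadjusted p below 0.05, and DESeq2's Wald test called 1. For Dam-Sd minus Dam-Jra, pbl was higher (22.1% of all windows) and Act42A, sqh, alpha-Spec and beta-Spec were lower (20% of all windows). For Yki-Dam minus Dam-Jra, 0 were higher (14.4% of all windows; 0 at an unadjusted p below 0.05) and Act42A, sqh and beta-Spec were lower (11.9% of all windows). For Act5C, Moe, cher and zip neither difference with Dam-Jra was called, which does not show that the folds are alike. For pbl, Yki-Dam minus Dam-Jra was 0.32 ± 0.24 (adjusted p = 0.350), not called. Moe depended on the control: the difference was −0.96 for Dam-Sd and −1.30 for Yki-Dam (adjusted p = 0.00449 and 0.0127) with the replicate number as a block, a fit that sets Dam-Jra against Dam Set 1. The difference between Yki-Dam and Dam-Jra at Moe was also called without Dam-Sd replicate 1 (adjusted p = 0.0345) or 3 (adjusted p = 0.00999). For alpha-Spec, Yki-Dam minus Dam-Jra was −0.48 ± 0.24 (adjusted p = 0.149). It was called without Dam-Sd replicate 1 (−0.60, adjusted p = 0.0423), Dam-Sd replicate 3 (−0.60, adjusted p = 0.0415) or Yki-Dam replicate 1 (−0.79, adjusted p = 0.0174). Through the mean of the sets, the Dam-Jra folds share Dam Set 1 with those of Dam-Sd and Dam Set 2 with those of Yki-Dam.

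The changes were not spread evenly along the genes. Single GATC ends were tested one by one over 394539 ends. With Dam-Sd 11% were higher and 11.3% lower. The shares were 7% and 3.06% with Yki-Dam and 18.8% and 19.9% with Dam-Jra. At Moe Dam-Sd had 43 higher and 3 lower of 95 tested ends, Yki-Dam 34 and 0, and Dam-Jra 60 and 0. At Act42A 13 of 17 were higher in Dam-Jra and 0 in Yki-Dam, while in Dam-Sd 1 was higher and 4 lower. At alpha-Spec Dam-Sd had 62 lower and 0 higher of 101, Yki-Dam 16 and 0, and Dam-Jra 42 and 2. At sqh 0 were higher and 1 lower of 18 with Dam-Sd (median log2 fold change −0.39), although the whole window rose. Yki-Dam had 0 called ends at sqh (median −0.33), and Dam-Jra 7 higher and 1 lower (median 1.19). At cher, zip, pbl and beta-Spec higher and lower ends stood in the same window. With Dam-Sd, 45 were higher and 13 lower of 173 at cher, 28 and 15 of 110 at zip, and 14 and 6 of 68 at pbl. With Dam-Jra the numbers were 58 and 23 at cher, 47 and 6 at zip, and 13 and 10 at pbl. All these Dam-Jra counts are against the mean of the 3 Dam sets. Against Dam Set 3 alone, higher and lower ends numbered 31 and 4 at cher, 35 and 4 at zip, and 7 and 0 at pbl. They numbered 30 and 0 at Moe, 10 and 0 at Act42A, 4 and 0 at sqh, and 0 and 17 at alpha-Spec. Act5C, with 9 higher and 1 lower of 30 against the mean of the sets, had 2 and 0. Shares over all ends against Set 3 alone are not given here, so these counts do not set the members apart.

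**Figure D3:**
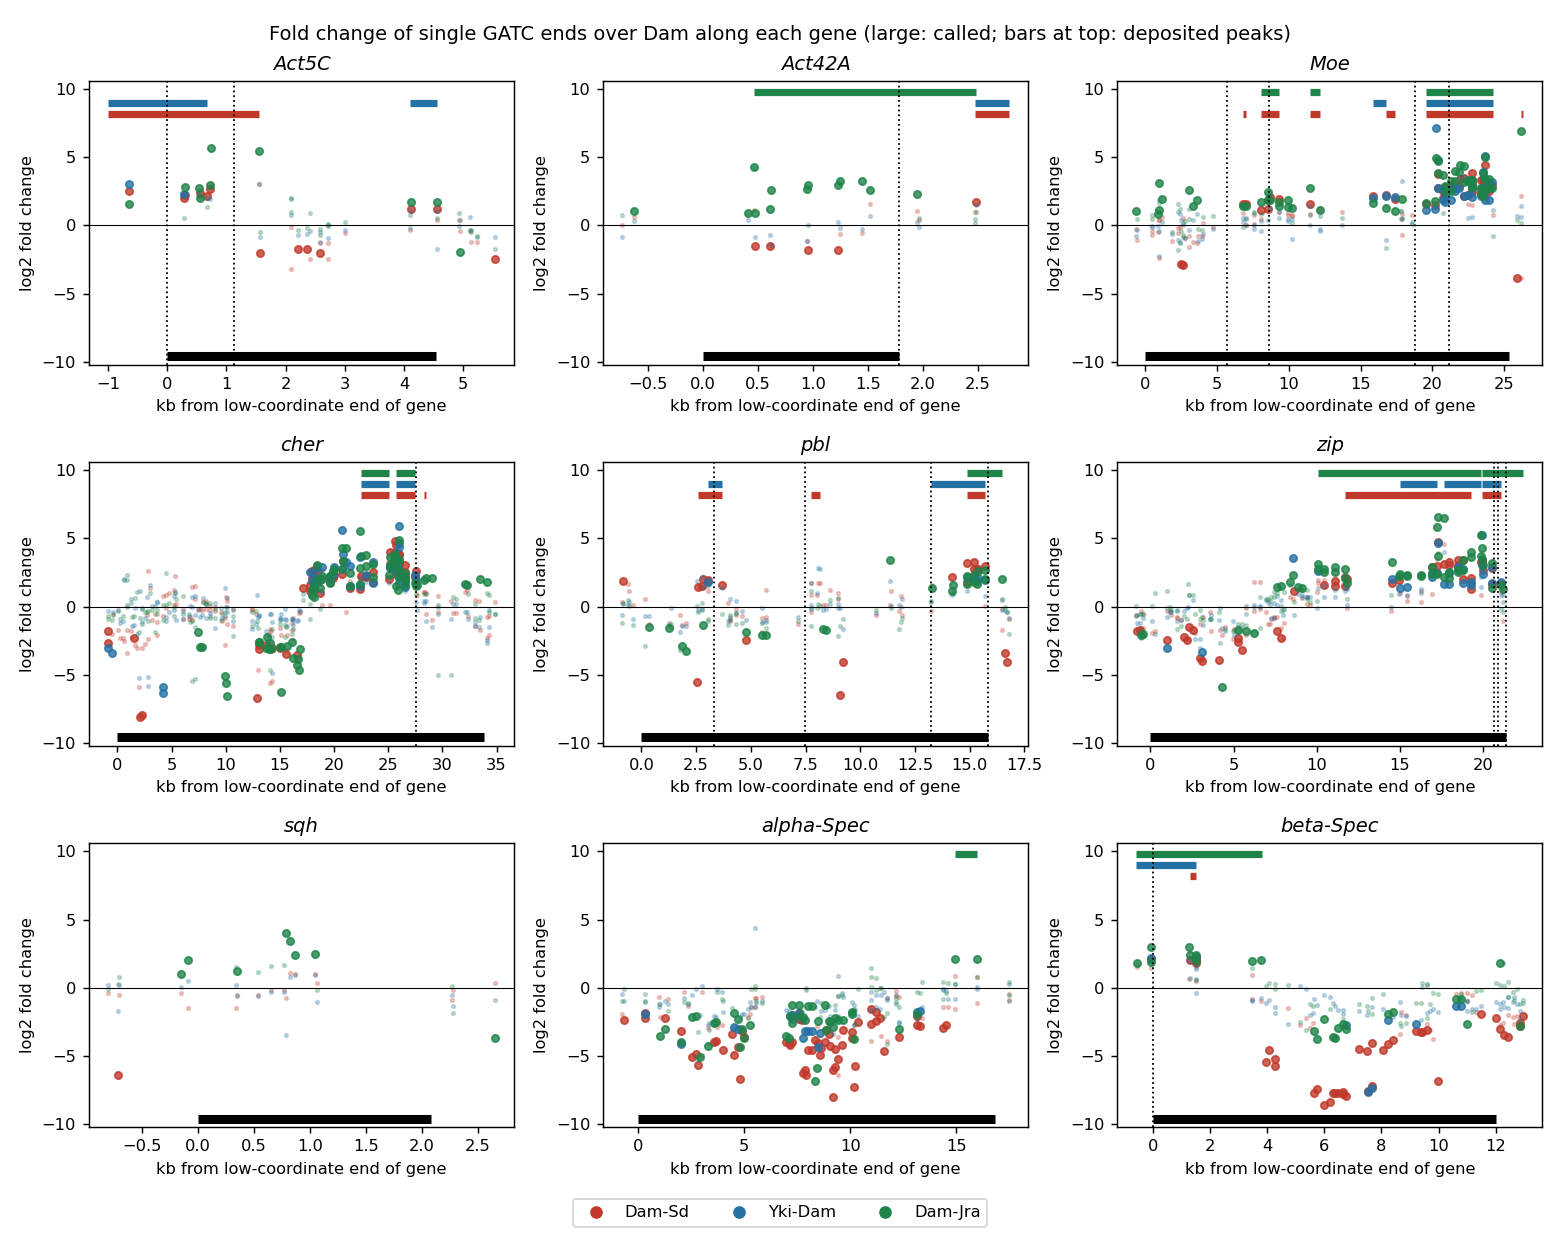
Log2 fold change over Dam (y axis) of every tested GATC end along the 9 genes, in kb from the gene's low-coordinate end (x axis). Large points were called, dotted lines are starts listed in the deposited peak tables, black bars are genes and coloured bars deposited peaks. In Dam-Sd, 62 of the 101 tested ends of alpha-Spec were called lower and 0 higher.

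At Moe, cher, zip and beta-Spec called ends near a listed gene start were higher and not lower, which was not so at every member. The authors' deposited tables of peaks list these starts and name 16 starts for 7 of the members. A start at 3L:1795328 is left out of the 16, since alpha-Spec and its neighbour dlt share that edge and the tables used here do not pair the listed ID with a symbol. These starts are listed because a peak lies within 5 kb of them, so the counts near them describe the pattern and support nothing. Within 2 kb of its listed start, cher had 25 tested ends, of which 18 were higher with Dam-Sd, 14 with Yki-Dam and 22 with Dam-Jra, with 0 lower in each. Farther away it had 27 higher and 13 lower of 148 with Dam-Sd, and 36 and 23 with Dam-Jra. At zip 11 of 15 ends near a start were higher with Dam-Sd, 10 with Yki-Dam and 13 with Dam-Jra, and no end near a start was lower. At beta-Spec 5 of 9 were higher near the start in Dam-Sd, whereas 35 of the 62 farther ends were lower. In Dam-Jra 8 of 9 near ends of beta-Spec were higher, with 14 lower and 3 higher among the 62 farther ends. Near the pbl starts 13 ends were higher and 6 lower of 59 with Dam-Sd, and 13 and 8 with Dam-Jra, where the median log2 fold change was −0.47. Near the Act5C starts 6 were higher and 4 lower of 20 with Dam-Sd. Near the Act42A start 1 was higher and 4 lower of 15 with Dam-Sd and 0 were called with Yki-Dam, while 12 were higher with Dam-Jra. At Moe 36 of 49 near ends and also 24 of 46 farther ends were higher with Dam-Jra. Near the Moe starts 29 were higher with Dam-Sd and 21 with Yki-Dam, with 0 lower in each. Farther away at Moe, 14 were higher and 3 lower with Dam-Sd, and 13 and 0 with Yki-Dam. Against Dam Set 3 alone, fewer Dam-Jra ends were called. Near starts, 13 were higher at cher, 11 at zip, 4 at beta-Spec, 7 at pbl, 10 at Act42A and 19 at Moe, with 0 lower in each. Among farther ends, higher and lower numbered 18 and 4 at cher, 2 and 2 at beta-Spec, and 11 and 0 at Moe. No share over all ends is given here for that control.

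Read counts follow for ends picked as the called end with the highest or lowest log2 fold change of their window in a fusion. They show extremes, not typical ends. The median over tested ends in Dam-Sd was −2.76 at beta-Spec, −2.99 at alpha-Spec and 1.22 at Moe. In Dam-Jra it was 0.12 at cher. At X:17663345, inside beta-Spec, the Dam-Sd libraries held 0 reads each, where Dam of Set 1 held 57, 50 and 121. The Yki-Dam libraries held 16, 4 and 2 reads there against 18, 12 and 8, and Dam-Jra 4, 4 and 1. This was the only end in any member window at which Dam-Sd and Yki-Dam were called different (0.149% of all ends were lower in Dam-Sd). At 3L:1787653, inside alpha-Spec, Dam-Sd again held 0 reads in each library against 56, 13 and 93. At X:8896677, inside Moe, the Dam-Sd libraries held 204, 239 and 150 reads against 26, 18 and 13, and Dam-Jra 287, 313 and 259. At 3R:17113929, inside cher, Dam-Jra held 148, 223 and 167 reads, against 1 to 20 in the 9 Dam libraries.

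Windows of 1 kb to each side were then tested at the listed starts and at both edges of every gene, 30851 windows in all. CPM at these places is scaled over them and is not comparable with that of whole genes. The listed starts are known only through peaks called on these libraries. Counts of them, also beside a share of all windows, describe the pattern and support nothing. Windows overlap among the Act5C starts and among the zip starts, so the 16 listed starts are not separate places. Of the 16 listed starts, 13 were higher in Dam-Sd (22.7% of all such windows), 8 in Yki-Dam (14%) and 12 in Dam-Jra (28.6%). 1 was lower in Dam-Jra (33.3% of all). Against Dam Set 3 alone, 8 were higher and 0 lower in Dam-Jra. With the replicate number as a block, 14 were higher in Dam-Sd and 11 in Yki-Dam. The starts added were 3L:7903583 of pbl in Dam-Sd (adjusted p = 0.00118) and, in Yki-Dam, 3R:17119082 of cher (adjusted p = 0.0105) and 3L:7903583 and 3L:7909338 of pbl (adjusted p = 0.0161 and 0.0239). Without Yki-Dam replicate 3, 5 starts were higher in Yki-Dam. Shares over all such windows are not given here for Set 3 alone, the block or the fit without that library. The Moe start at X:8894195 rose by 3.04 ± 0.37 with Dam-Sd, 2.34 ± 0.36 with Yki-Dam and 3.15 ± 0.25 with Dam-Jra (log2), and its start at X:8878725 was called in none. The start of Act42A at 2R:6015689 rose by 3.01 ± 0.17 in Dam-Jra and stood at −0.04 ± 0.23 in Dam-Sd and 0.16 ± 0.23 in Yki-Dam.

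At pbl the starts differed within 1 gene. At 3L:7911954 Dam-Sd held 747, 697 and 315 CPM against 74.8, 95.8 and 44.6 CPM in Dam of Set 1 (log2 3.03 ± 0.37, adjusted p = 6.72e-06), and Dam-Jra rose too (2.05 ± 0.26, adjusted p = 2.69e-06). At 3L:7899436 Dam-Sd held 131, 133 and 72.4 CPM against 36.0, 38.6 and 35.0 CPM (1.61 ± 0.27, adjusted p = 0.000122). There Dam-Jra held 25.3, 20.5 and 21.3 CPM, below every Dam library (29.3 to 40.1 CPM) and called lower (−0.61 ± 0.23, adjusted p = 0.0253). That call was lost without Dam-Jra replicate 2 (−0.56) or 3 (−0.58). Nor was it made against Dam Set 3 alone, where 0 of the 16 listed starts were lower in Dam-Jra. The difference between the fusions at this start was 2.23 ± 0.32 (adjusted p = 5.28e-05), and Yki-Dam differed from Dam-Jra by 1.12 ± 0.31 (adjusted p = 0.0171).

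In Dam-Sd the listed beta-Spec start moved against its whole window, and in Dam-Jra so did an alpha-Spec edge shared with dlt. The listed beta-Spec start at X:17657372 was higher in Dam-Sd (1.94 ± 0.54, adjusted p = 0.00690), Yki-Dam (1.98 ± 0.54, adjusted p = 0.0102) and Dam-Jra (2.08 ± 0.39, adjusted p = 0.000190). Levels were low there: Dam-Sd held 8.46, 6.86 and 6.06 CPM against 1.32, 2.96 and 1.32 CPM in Dam of Set 1. Yki-Dam held 4.26, 19.4 and 22.4 CPM against 1.43, 3.89 and 6.40 CPM in Dam of Set 2, so the groups overlapped. Dam-Jra held 13.7, 9.33 and 12.3 CPM, above the 9 Dam libraries. In the authors' deposited tables, the Yki-Dam and Dam-Jra peaks here also list another gene's start inside this window. The rise can therefore not be assigned to beta-Spec alone. The Yki-Dam call was lost without Yki-Dam replicate 3 (1.60, adjusted p = 0.0560). The other edge, X:17669371, was lower in Dam-Sd (−2.12 ± 0.29) and Yki-Dam (−1.21 ± 0.28) and higher in Dam-Jra (0.52 ± 0.22, adjusted p = 0.0463). At the edge 3L:1795328 of alpha-Spec, Dam-Jra held 15.8, 22.1 and 16.4 CPM, above the 9 Dam libraries (4.41 to 8.82 CPM), and rose by 1.45 ± 0.28 (adjusted p = 0.000232). Dam-Sd stood there at 0.34 ± 0.37 and Yki-Dam at −0.20 ± 0.37, neither called.

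**Figure D4:**
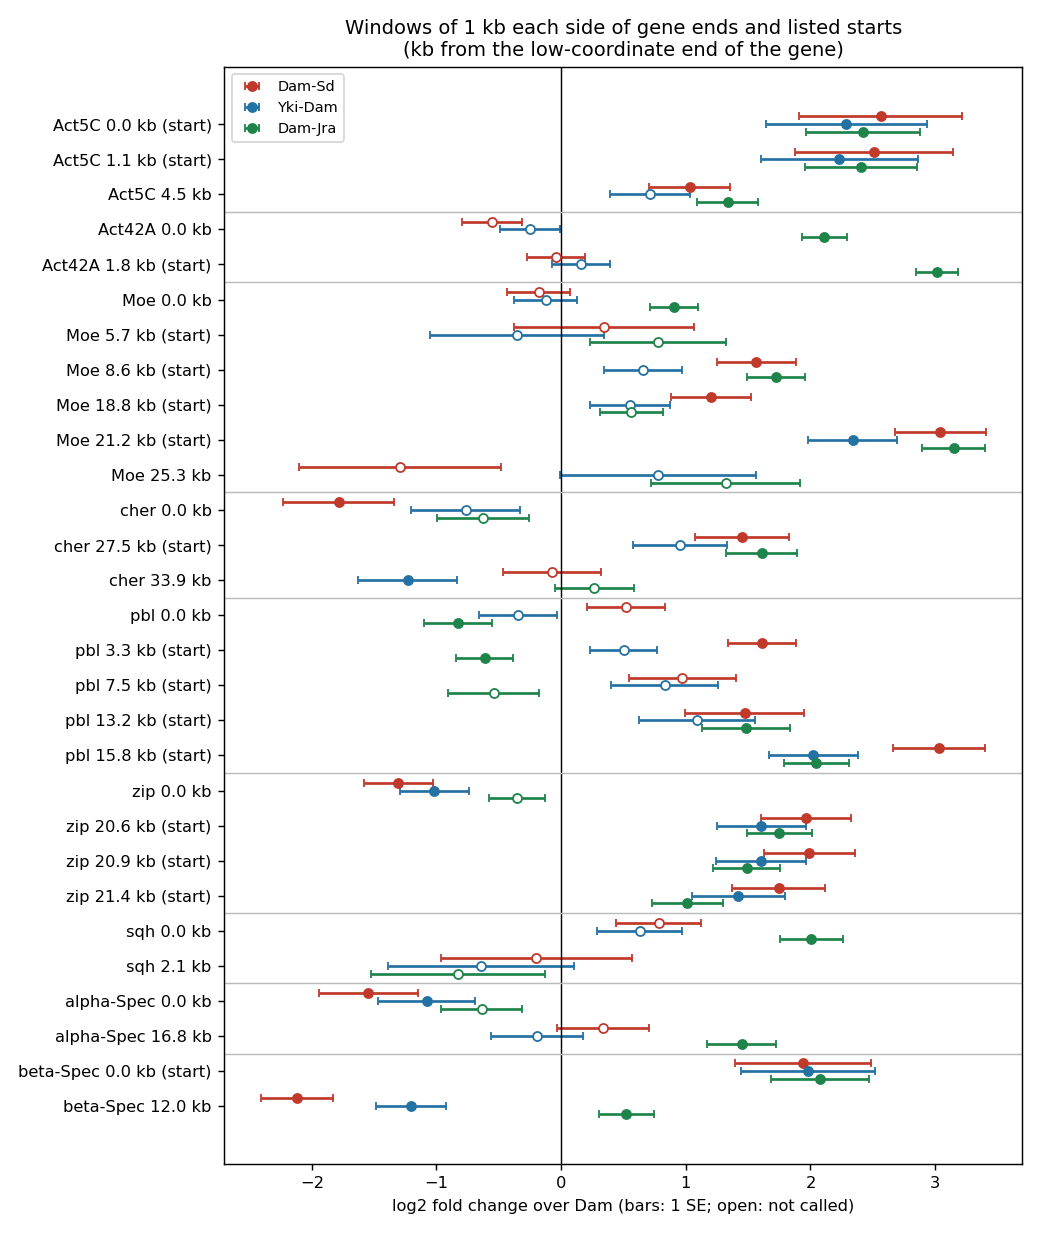
Log2 fold change over Dam (x axis, bars 1 SE, open symbols not called) of windows reaching 1 kb to each side of the gene ends and listed starts (y axis, kb from the low-coordinate end) in the 3 fusions. Dam-Sd and Dam-Jra stand on opposite sides of 0 at the pbl start 3327 bases into the gene, at 1.61 and −0.61. The Dam-Jra loss there was called against the mean of the 3 Dam sets but not against Dam Set 3 alone.

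The authors' deposited tables of peaks, with the authors' own log2 folds, placed 17 Dam-Sd, 13 Yki-Dam and 11 Dam-Jra peaks in member windows by an overlap of 1 base or more. Each list had a peak in 7 of the 9 windows, where 26.2%, 20.7% and 26.6% of all windows had one. These shares are not matched for window size: member windows held 24 to 276 ends, against a median of 32 over all windows. In each list, 6 members had a peak assigned to a listed start of their own. In the authors' deposited tables, sqh had no peak in any list, and alpha-Spec had 1, in Dam-Jra, at 3L:1793425-1794469 (log2 1.64), listed for the start that alpha-Spec shares with dlt. In the authors' deposited tables, Moe carried 1 interval in all 3 lists, X:8892557-8897205, with log2 folds of 2.18 for Dam-Sd, 2.76 for Yki-Dam and 2.53 for Dam-Jra. The authors' deposited tables also gave cher 2 intervals that were identical in all 3 lists, 3R:17113989-17116629 and 3R:17117254-17119038.

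In the authors' deposited tables, Act42A had a peak of its own only in Dam-Jra, 2R:6014376-6016388 (log2 2.36). The Dam-Sd and Yki-Dam peaks in that window, 2R:6016386-6017182 in the authors' deposited tables, began beyond the gene and were assigned to another start. Act5C was the reverse: the authors' deposited tables gave it peaks in Dam-Sd (X:5898235-5902417, log2 2.35) and Yki-Dam (X:5895320-5901538, log2 2.28) and none in Dam-Jra. The Act5C window rose 3.46-fold in Dam-Jra against the mean of the 3 Dam sets, and 2.04-fold against Dam Set 3 alone. In the authors' deposited tables, pbl had 3 Dam-Sd peaks, 2 Yki-Dam peaks and 1 Dam-Jra peak. The Dam-Sd peak at 3L:7898713-7899812 (log2 1.79 in the authors' deposited tables) lies at the start that was lower in Dam-Jra against the mean of the Dam sets.

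The intervals common to the 3 lists took unequal parts of the reads. The Moe interval covers 17.0% of its window. It took 59.2% to 69.3% of the window's reads in Dam of Set 1, 84.9% to 91.3% with Dam-Sd, 90.4% to 91.2% with Yki-Dam and 92.4% to 92.9% with Dam-Jra, and already 82.0% to 83.1% in Dam of Set 3. The pbl interval shared by the 3 lists, 3L:7910977-7911812, covers 4.68% of the window. It took 24.8% to 42.9% of reads in Dam of Set 1, 33.2% to 58.8% in Set 2 and 49.7% to 57.6% in Set 3. With the fusions it took 63.4% to 74.2% (Dam-Sd), 62.9% to 85.8% (Yki-Dam) and 77.5% to 79.3% (Dam-Jra). With Dam-Sd, the zip interval 2R:25010522-25011620 took 4.23% to 5.04% of reads for 4.70% of the window, and 2R:25005543-25007770 took 8.36% to 9.77% for 9.52%. The zip interval 2R:25008192-25009855 took far more, 43.4% to 45.9% with Dam-Sd for 7.11%, against 13.2% to 20.2% in Dam of Set 1. At cher, 3R:17113989-17116629 took 4.40% to 13.3% with Dam-Sd for 7.37%. The cher interval 3R:17117254-17119038 took 21.5% to 31.0% with Dam-Sd for 4.98%, against 14.2% to 17.5% in Dam of Set 1. Peaks were called on these libraries, so these shares are descriptions.

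Dam alone reached the members to different degrees. Per kb of window, Act5C had the highest level, 28.1 ± 12.7 CPM per kb (SD over 9 Dam libraries), above or equal to 97.7% of all windows. Moe followed with 17.6 ± 8.34, then zip with 13.5 ± 3.86, Act42A with 12.7 ± 1.71 and sqh with 9.34 ± 2.13 CPM per kb. cher (8.12 ± 1.93), pbl (8.05 ± 1.70), beta-Spec (6.79 ± 0.931) and alpha-Spec (6.02 ± 1.57 CPM per kb) were lowest. Neighbours in that order differ by less than the larger of their SDs, apart from Act42A and sqh. Dam Set 3 was well above Sets 1 and 2 at Act5C (44.2 CPM per kb against 21.1 and 18.8) and at Moe (28.4 against 11.7 and 12.9).

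Across the 18 libraries, cher and zip varied most alike among the members (Pearson r = 0.984 of log2 CPM), and Moe and zip had r = 0.963. alpha-Spec ran against pbl (r = −0.854) and cher (r = −0.738), and beta-Spec ran closest to Act42A (r = 0.880). The libraries share their groups, sets and depth, so these values describe the pattern of groups. By the same measure, the windows outside the list most like each member were ena for Act5C (r = 0.965), RpLP0-like for Act42A (0.984), rdx for Moe (0.993), CG1677 for cher (0.986) and cno for pbl (0.993). For the others they were pelo for zip (0.990), CG14834 for sqh (0.936), CG8677 for alpha-Spec (0.984) and RN-tre for beta-Spec (0.958). Windows at r above 0.9 were common for Moe (7.03% of all) and rare for sqh (0.0497%).

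Of 53 other cytoskeleton genes, Dam-Sd had 18 higher and 15 lower, Yki-Dam 22 and 3, and Dam-Jra 29 and 9. Over all windows 25.5% were higher and 29% lower with Dam-Sd, 21.1% and 15.3% with Yki-Dam, and 32.3% and 36.2% with Dam-Jra. Their median log2 fold changes were 0.24, 0.24 and 0.58. In Dam-Sd the gains with the smallest p were jbug (a filamin-type protein, 2.63), chic (profilin, which feeds actin monomers to growing filaments, 2.56) and the formin DAAM (2.01). In Yki-Dam they were DAAM (2.24), jbug (2.07) and the septin pnut (1.50). In Dam-Jra they were the myosin light chain Mlc-c (2.04), the bundling protein Fim (2.13) and the formin dia (2.03). The losses with the smallest p were the kinases Pak (−1.49) and Slik (−1.21) and the myosin didum (−1.21) in Dam-Sd, and didum (−0.79), Pak (−0.68) and Slik (−0.58) in Yki-Dam. In Dam-Jra they were the muscle actin Act79B (−2.45), Slik (−0.87) and SCAR (−0.72), an activator of actin branching.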

How the data were processed

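Targeted DamID libraries were analysed from the authors' deposited table of raw read counts per end of a GATC site. The submitters' processing notes name Subread, featureCounts, edgeR, bedtools and dm6, without versions or roles. For each peak the authors' deposited tables hold a log2 fold, a p-value and the gene starts within 5 kb. Not given in the sources used here are the Dam libraries behind the peaks and any pooling.

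Reads were added up over RefSeq gene spans (Release 6, the dm6 assembly) with 1 kb flanks, and 89.9% of the 14195 windows share ends with another. Libraries were scaled by TMM (factors 0.56 to 1.62), and windows passed filterByExpr at minimum count 10. A model in edgeR 4.0.16 (R 4.3.3; 12 residual degrees of freedom) held all 18 libraries as 6 groups, and p-values were adjusted over 14090 windows. SE was taken from the log2 fold change and its F statistic. The steps were tested on simulated data. The RefSeq table has no strand, so gene starts were replaced by both edges of every gene and the starts in the peak tables, 30851 windows in all. Replicate numbers paired Dam-Sd with Dam Set 1 (correlations of deviations 0.569, 0.360 and 0.421) and Yki-Dam with Set 2 (0.643, 0.419 and 0.374), but not Dam-Jra with Set 1 (−0.260, −0.0636 and −0.0844) or Set 3 (0.108, −0.129 and 0.106). No 2 libraries were duplicates (highest r 0.993). The members, lists and named genes (all members, up to 3 other cytoskeleton genes per direction and fusion, the extreme ends, the most alike window) were chosen with earlier results of these data known. Alternatives were another scaling, DESeq2 1.42.0, other filters, windows and controls, the replicate block and leaving out each library.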

Additional observations from a re-analysis of the deposited data

How the results depend on the processing

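Under the alternatives tried, 2596 of 2712 recomputed values of single members kept their direction and their side of the threshold, 44 lost their call, 70 gained one and 2 turned direction. Both turned with scaling by library size alone, which moved the median of all windows to −1.21 (Dam-Sd), −0.95 (Yki-Dam) and −1.03 (Dam-Jra): sqh in Dam-Sd stood at −0.20 and Act42A in Yki-Dam at −0.58. That scaling gave 3 lower windows in Yki-Dam, 5 higher and 1 lower start in Dam-Sd, and 2 lower starts in Dam-Jra. Among single ends in member windows it gave 70 higher and 273 lower with Dam-Sd, 95 lower with Yki-Dam and 222 lower with Dam-Jra. Shares over all ends or starts under the alternatives are not given here, so such counts do not set the members apart. Of the member windows, 1 was lower in Dam-Sd with DESeq2 size factors, over ends in no other window, or when fitting just those libraries. Against all 9 Dam libraries in each case, 2 were lower in Yki-Dam and 6 for Yki-Dam minus Dam-Jra, and 6 also when fitting just the libraries of a comparison. For Dam-Sd minus Yki-Dam, 1 was lower with DESeq2's Wald test and 1 with the replicate number as a block. The block also gave 2 lower starts in Dam-Jra, and over all windows 941 calls for Dam-Sd minus Yki-Dam against 465 without it. At adjusted p below 0.01, 0 were higher for Dam-Sd minus Dam-Jra, and single ends numbered 90 higher and 75 lower with Dam-Sd, 67 and 9 with Yki-Dam, and 30 lower with Dam-Jra. DESeq2 size factors gave 44 lower ends in Yki-Dam. In the authors' deposited tables, the 50% of each list with the smaller p held 10 Dam-Sd and 8 Yki-Dam peaks in member windows. An overlap of 50% of each peak left 7 pairs between Dam-Sd and Yki-Dam and 3 between Yki-Dam and Dam-Jra. Leaving out 1 library at a time gave 0 to 1 higher and 0 to 1 lower for Dam-Sd minus Yki-Dam, and 2 to 5 lower for Yki-Dam minus Dam-Jra. Among starts it gave 0 to 1 lower in Dam-Jra and 5 to 11 higher in Yki-Dam. The causes were not tested. Leaving out libraries was not run for single ends. Of the 1174 ends in member windows, 683 were deep enough to test singly, 18 of the 30 at sqh, so fewer ends can show a change in the short genes.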
